A study of Homo sapiens with 18 samples.

Results

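This comparison sets vehicle-treated HL60 against vehicle-treated THP-1, human myeloid leukaemia lines kept without the phorbol ester PMA. Its members are the 3 arrays of HL60 and the 3 arrays of THP-1 that received only dimethyl sulfoxide (DMSO), 6 of the 18 arrays of the series, and they were chosen by the cell line and agent given in the labels. HL60 is an established line from an acute promyelocytic-type leukaemia and THP-1 an established line from an acute monocytic leukaemia. In the whole study, HL60, THP-1 and the histiocytic line U937 were grown for 3 days either with DMSO or with the phorbol ester PMA at 30 nM, which drives protein kinase C and turns such cells macrophage-like, with 3 arrays in each of the 6 groups. All groups shared serum-supplemented RPMI1640 medium. Total RNA taken with TRIzol was hybridised to Affymetrix Human Exon 1.0 ST arrays, which carry probe sets along the exons of a gene. Each line is 1 cultured line, and the labels do not say whether the replicates of a group came from separate cultures, so a p-value here reflects the spread among these arrays alone, which may be technical.

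A myeloid progenitor that becomes a granulocyte first fills primary (azurophil) granules with myeloperoxidase, serine proteases and antimicrobial proteins, and later fills secondary and tertiary granules under the control of C/EBP family factors. A progenitor that becomes a monocyte depends on the transcription factors PU.1 and IRF8 and acquires the receptors for M-CSF and for chemokines. THP-1 is known to carry a fusion of the histone methyltransferase gene KMT2A with MLLT3, a lesion that in leukaemia goes with sustained expression of late HOXA genes and their partners, and HL60 is known for an amplified MYC locus.

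Values are log2 intensities. A gene's level is the mean of its probe sets after quantile normalization of all 18 arrays, and 16260 genes with at least 3 probe sets were tested. Differences are HL60 minus THP-1 ± SE pooled over all 6 groups, unless the higher line is named, and a gene was called at an adjusted p under 0.05 in limma's moderated test. The depth of an array is not a read count, and the number of arrays limits the precision: the median SE of the difference was 0.177. Pairs of arrays of the same line correlated at 0.937 to 0.969 in HL60 and 0.938 to 0.978 in THP-1 over all probe sets, and pairs across the lines at 0.883 to 0.921. Pairs of HL60 arrays held 87 to 103 identical deposited values and pairs of THP-1 arrays 78 to 99, while no pair across the lines held more than 5, a split that follows the lines, so line and processing set cannot be told apart.

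HL60 and THP-1 differed in many genes, and THP-1 held the larger differences. Of the 16260 genes, 2016 were higher in HL60 (12.4%) and 2182 higher in THP-1 (13.4%). At least 2-fold differences numbered 548 in HL60 (3.37%) and 1052 in THP-1 (6.47%), at least 4-fold ones 98 and 338, and at least 16-fold ones 10 and 36. The median size among called genes was 0.70 in HL60 and 0.97 in THP-1. THP-1 thus held 52% of the calls; with the values as the authors deposited them, before quantile normalization, the calls were 943 and 1754, and THP-1 held 65%, while with each array centred on its median they were 2358 and 2070, and THP-1 held 46.7%. The median over all genes was 0.09 toward HL60 (0.05 as deposited and 0.14 with each array centred on its median). Dim genes leaned to HL60: among the 4012 genes at or below 5.12 in both lines, the 30th percentile of all values, 10.4% were called higher in HL60 and 5.41% in THP-1, with a median difference of 0.19.

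The highest excess in HL60 was in myeloperoxidase (MPO), the haem enzyme of primary granules. Its level was 12.51, 12.78 and 12.66 on the HL60 arrays and 6.03, 5.86 and 5.77 on the THP-1 arrays, a difference of 6.76 ± 0.17 or 108-fold (adjusted p = 8.873e-13), and U937 stood at 4.98. The granulocyte protein BPI, which binds bacterial lipopolysaccharide, was at 9.56, 9.42 and 7.56 in HL60 and 3.93, 3.81 and 4.21 in THP-1 (4.86 ± 0.54, adjusted p = 3.97e-06). No array of one line overlapped the other in either gene, but the HL60 array numbered 3 was lower than its fellows in BPI and not in MPO.

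Of the 13 genes measured in the primary granule list, 7 were higher in HL60 and 3 higher in THP-1, where 12.4% and 13.4% of all genes were. The median difference was 1.11, the value of PRG2 itself, against 0.09 over all genes. The list also holds the eosinophil proteins EPX and PRG2, counted again with the eosinophil genes, and protease inhibitors. Besides MPO, those higher in HL60 were eosinophil peroxidase EPX (4.09 ± 0.41), the serpin SERPINB10 (3.99 ± 0.19), the cathepsin inhibitor CST7 (3.62 ± 0.27), the elastase inhibitor SERPINB1 (2.19 ± 0.31), lysozyme LYZ (1.56 ± 0.42) and PRG2, which is treated with the eosinophil genes. The others, higher in THP-1, are serine protease family members of primary granules. Azurocidin (AZU1) was at 8.69, 9.04 and 8.77 in HL60 and 11.99, 11.79 and 11.74 in THP-1, higher in THP-1 by 3.01 ± 0.20 (adjusted p = 1.327e-08). Cathepsin G (CTSG) was at 9.94, 8.51 and 8.29 in HL60 and 12.43, 12.40 and 10.73 in THP-1, higher in THP-1 by 2.94 ± 0.50 (adjusted p = 0.0003257). Neutrophil elastase (ELANE) was at 11.13, 11.46 and 11.27 against 12.37, 12.23 and 12.23, higher in THP-1 by 0.99 ± 0.25 (adjusted p = 0.007904), a call that was lost when a gene's value was the median of its probe sets (-0.82, adjusted p = 0.07165). Proteinase 3 (PRTN3), the neighbour of AZU1 and ELANE, had overlapping arrays and was not called (-0.68 ± 0.33, adjusted p = 0.1492). The granule proteoglycan serglycin (SRGN, 0.54) and the defensin DEFA4 (0.01) were not called. The genes of this list thus did not move as a block. The peroxidases and protease inhibitors measured were higher in HL60, and 3 of the 4 serine protease family members in THP-1.

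**Figure D1:**
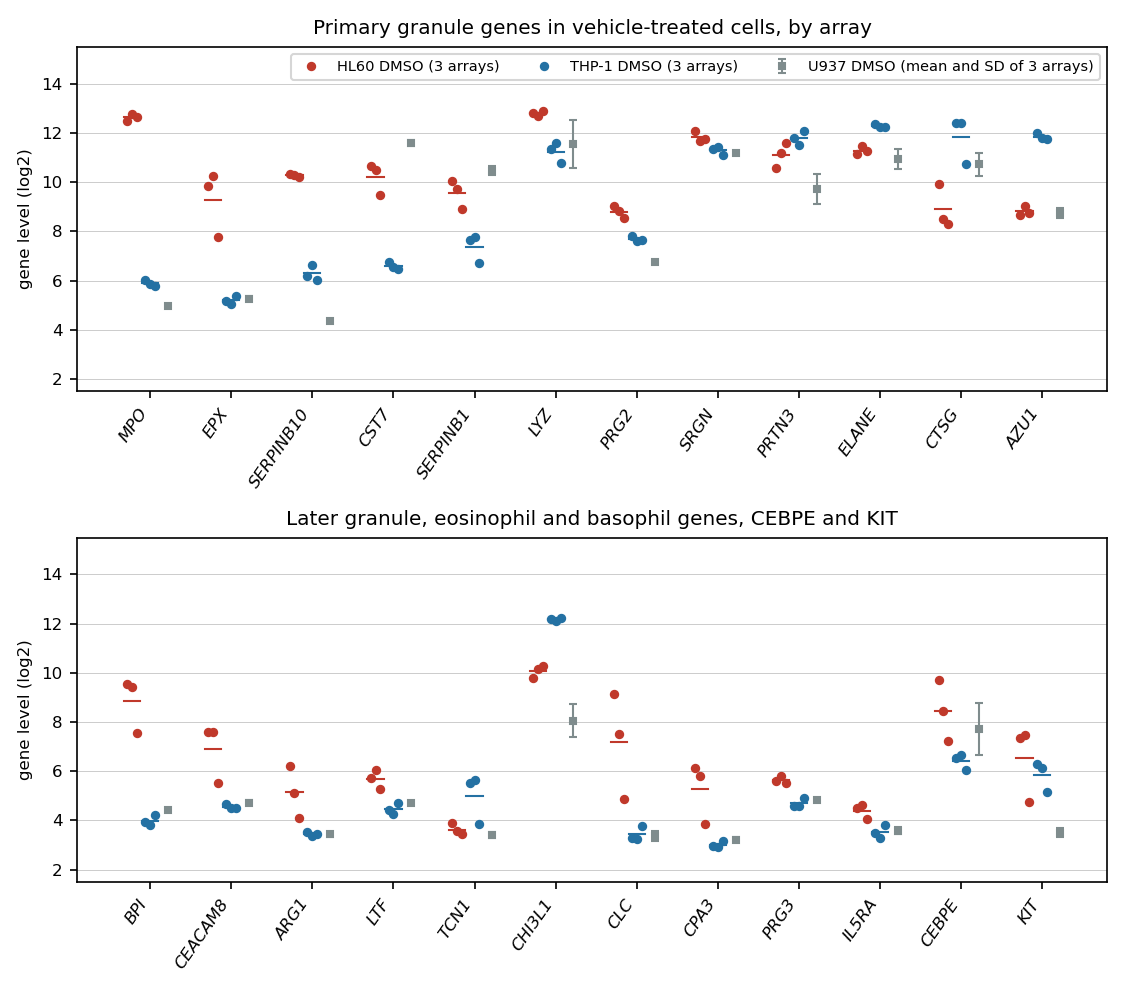
Gene level (log2) of granule, eosinophil and basophil genes, CEBPE and KIT on each of the 3 HL60 (red) and 3 THP-1 (blue) DMSO arrays, bars marking the means, and U937 DMSO (grey) as mean and SD of 3 arrays. MPO lies at 12.51 to 12.78 in HL60 and 5.77 to 6.03 in THP-1, AZU1 lies the other way, and the rightmost HL60 point of each gene, array 3, is the lowest in EPX, BPI, CLC, CPA3 and CEBPE.

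Promoters of 6 genes, from RefSeq on build GRCh38.p14, are printed. They were picked from genes of granulocytes and their differentiation that lie on different sides of the comparison. CYBB, CEBPE and CLC are not in the primary granule list. CYBB and CEBPE (described below) and CLC were higher in HL60, AZU1 and CTSG were higher in THP-1, and PRTN3 was not called. Each runs 5′ to 3′ on the gene's strand from 250 bases before to 50 bases after the start site: CYBB at chrX:37779809-37780108 (plus strand), CEBPE at chr14:23119206-23119505 (minus), CLC at chr19:39737980-39738279 (minus), AZU1 at chr19:827587-827886 (plus), CTSG at chr14:24576201-24576500 (minus) and PRTN3 at chr19:840749-841048 (plus). Capitals mark matches, on either strand, to GAGGAA (PU.1), TTNNGNAA (C/EBP), AACNG (MYB) and TGTGGT (RUNX), and no matches overlapped in these 6.
CYBB: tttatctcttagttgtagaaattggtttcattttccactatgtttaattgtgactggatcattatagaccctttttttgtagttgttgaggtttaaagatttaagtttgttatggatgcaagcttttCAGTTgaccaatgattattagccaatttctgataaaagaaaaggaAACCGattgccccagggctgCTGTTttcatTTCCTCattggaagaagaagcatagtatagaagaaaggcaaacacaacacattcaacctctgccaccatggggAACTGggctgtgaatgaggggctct
CEBPE: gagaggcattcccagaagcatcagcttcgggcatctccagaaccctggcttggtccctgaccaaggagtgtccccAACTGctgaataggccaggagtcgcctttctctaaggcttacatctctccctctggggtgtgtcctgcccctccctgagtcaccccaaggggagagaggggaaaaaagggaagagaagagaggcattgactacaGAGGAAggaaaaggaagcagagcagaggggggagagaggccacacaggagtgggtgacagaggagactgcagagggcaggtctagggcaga
CLC: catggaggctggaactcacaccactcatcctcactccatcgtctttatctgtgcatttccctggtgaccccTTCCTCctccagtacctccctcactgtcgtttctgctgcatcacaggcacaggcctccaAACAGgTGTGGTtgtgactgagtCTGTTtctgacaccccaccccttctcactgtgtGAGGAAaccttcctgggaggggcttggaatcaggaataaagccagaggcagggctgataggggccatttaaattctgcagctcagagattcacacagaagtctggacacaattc
AZU1: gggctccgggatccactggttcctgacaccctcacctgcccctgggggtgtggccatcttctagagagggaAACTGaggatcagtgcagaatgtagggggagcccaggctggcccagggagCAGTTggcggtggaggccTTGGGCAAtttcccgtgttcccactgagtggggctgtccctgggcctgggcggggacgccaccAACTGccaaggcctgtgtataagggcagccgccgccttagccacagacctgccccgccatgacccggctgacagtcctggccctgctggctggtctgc
CTSG: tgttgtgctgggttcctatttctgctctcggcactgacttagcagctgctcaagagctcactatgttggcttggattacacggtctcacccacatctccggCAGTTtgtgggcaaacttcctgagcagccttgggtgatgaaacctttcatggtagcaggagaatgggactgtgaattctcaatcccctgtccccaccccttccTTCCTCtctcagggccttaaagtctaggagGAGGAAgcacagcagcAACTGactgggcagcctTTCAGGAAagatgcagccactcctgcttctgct
PRTN3: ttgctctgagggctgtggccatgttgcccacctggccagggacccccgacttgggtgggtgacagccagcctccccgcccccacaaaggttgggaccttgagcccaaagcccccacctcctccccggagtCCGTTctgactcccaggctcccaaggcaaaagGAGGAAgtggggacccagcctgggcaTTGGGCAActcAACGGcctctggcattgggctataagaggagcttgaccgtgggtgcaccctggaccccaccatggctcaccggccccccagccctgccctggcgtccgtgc

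The C/EBP letters were found once in each of AZU1, CTSG and PRTN3 and in none of CYBB, CEBPE and CLC. They occur in 36.8% of the 35116 promoters of the table. The 6 were picked, so this split does not describe the genes higher in either line. Of the 7 genes of the primary granule list higher in HL60, 1 had a promoter among the 35116, and it lacked the C/EBP letters. The PU.1 letters occurred in 5 of the 6, once in CYBB, CEBPE and PRTN3, 2 times in CLC and CTSG and not in AZU1, against 27.9% of promoters. The MYB letters, present in 77.2% of promoters, were in all 6, and the RUNX letters, in 13.1%, were in CLC. A match is a description of the letters and not a binding site, and a missing match says only that these letters are not in this window.

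In the list of secondary and tertiary granule genes, 7 of 17 were higher in HL60 and 2 in THP-1, where 12.4% and 13.4% of all genes were. Another 8 were not called, and the median was 0.51. BPI is counted in this list although it is a protein of primary granules. After BPI, the largest were the surface antigen CEACAM8 (2.34 ± 0.37; 7.58, 7.61 and 5.51 in HL60 against 4.49 to 4.68 in THP-1) and arginase ARG1 (1.69 ± 0.32; 6.20, 5.11 and 4.12 against 3.35 to 3.54). Lactoferrin LTF was higher by 1.22. The chitinase-like protein CHI3L1 was higher in THP-1 by 2.10 ± 0.25, at 12.19, 12.09 and 12.25 against 9.79, 10.16 and 10.29 in HL60. The vitamin B12 binder TCN1 was called higher in THP-1 (1.37) although THP-1 array 3, at 3.84, lay below HL60 array 1, at 3.89. The collagenase MMP8 (1.31), the gelatinase MMP9 (0.34), lipocalin LCN2 (0.51) and the cathelicidin CAMP (-0.10) were not called.

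Of 10 eosinophil, basophil and mast cell genes, 6 were higher in HL60 and 0 in THP-1, where 12.4% and 13.4% of all genes were, and the other 4 (the histidine decarboxylase HDC, the eotaxin receptor CCR3, MS4A2 and ENPP3) lay at or below 5.12 in both lines, as did the called IL5RA. EPX was at 9.83, 10.25 and 7.77 in HL60 and 5.17, 5.06 and 5.37 in THP-1 (adjusted p = 1.147e-06). Galectin-10 of Charcot-Leyden crystals (CLC) was at 9.15, 7.53 and 4.89 against 3.28, 3.25 and 3.77, a difference of 3.75 ± 0.66 (adjusted p = 0.0004094). The mast cell carboxypeptidase CPA3 was at 6.13, 5.81 and 3.84 against 2.96, 2.94 and 3.16 (2.24 ± 0.38). In each of these genes the HL60 arrays were all above the THP-1 arrays, and array 3 was the lowest of HL60. PRG3, a relative of the eosinophil major basic protein, was higher by 0.95, and the interleukin-5 receptor chain IL5RA by 0.87 from levels below 5.12.

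The major basic protein gene PRG2 needs its probe sets to be read apart. The annotation gave the symbol to 35 probe sets in 2 distant blocks of numbers. All 8 probe sets of the lower block (3373814 to 3373829) were higher in HL60 with no overlap of arrays, by 4.01 to 8.19, at a median level of 10.95 against 5.04. The 27 of the upper block (3844782 to 3844810) had a median of -0.45, and in 12 of them all THP-1 arrays lay above all HL60 arrays. In the RefSeq table PRG2 is also an older name of PLPPR3 on chromosome 19, and which gene the upper block lies in was not settled. Over all 35 probe sets PRG2 was higher by 1.11 in HL60, and over the lower block alone, a choice made after the values were seen, by 6.40 ± 0.76 (adjusted p = 8.191e-06), at 12.26, 11.10 and 9.20 against 4.55, 4.51 and 4.30.

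HL60 array 3 was the lowest of its line in several of these granulocyte genes and the highest in some monocyte genes. In CLC and ARG1 the fall was stepwise from array 1 to array 3. The monocyte list was not uniform, as its member CLEC4A was also lowest on array 3 (5.62, 4.42 and 3.98). The progenitor receptor KIT was at 7.34, 7.49 and 4.74 in HL60 and 6.29, 6.11 and 5.16 in THP-1, with array 3 the lowest in both lines. KIT was not called (0.67, adjusted p = 0.3528). It was called without HL60 array 3 (1.56, adjusted p = 0.0005292) and in no other setting. The monocytic factor IRF8 was at 8.41 and 8.73 on the other HL60 arrays and 10.53 on array 3, and the invariant chain CD74 at 8.21, 8.33 and 9.68. Without array 3 the differences became 4.84 for EPX, 4.90 for CLC, 2.95 for CPA3, 5.51 for BPI and -3.51 for IRF8. The counts of called genes stayed at 7 and 3 for the primary granule list and 7 and 2 for the later granule list. Those for eosinophil and basophil genes stayed at 6 and 0. Among the later granule genes MMP25 lost its call and MMP8 gained one.

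Several factors that specify the myeloid lineage were not called between the lines. PU.1 (SPI1) was at 8.82, 9.42 and 9.50 in HL60 and 9.06, 8.91 and 9.27 in THP-1, and C/EBP-alpha (CEBPA) at 8.80, 9.48 and 9.41 against 9.24, 8.93 and 9.29. Neither these nor the granulocytic repressor GFI1 (0.06), RUNX1 (0.06) or the progenitor factor MYB (0.04) were called, with overlapping arrays in each. Their SEs were 0.19 (SPI1) to 0.33 (MYB), and the sign of the CEBPA, GFI1 and MYB differences turned in the values as deposited. Of 39 myeloid transcription factors, 4 were higher in HL60 and 5 in THP-1, where 12.4% and 13.4% of all genes were.

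C/EBP-epsilon (CEBPE), needed for secondary granules, was at 9.70, 8.45 and 7.24 in HL60 and 6.55, 6.64 and 6.04 in THP-1, a difference of 2.05 ± 0.60 (adjusted p = 0.01903). The HL60 arrays spread over more than the gap to THP-1. The call was lost without HL60 array 1 (1.43, adjusted p = 0.09354), HL60 array 2 (2.06, adjusted p = 0.05027) or THP-1 array 3 (1.87, adjusted p = 0.05645). The repressor ETV6 (1.74 ± 0.26) and the lymphomyeloid factor IKZF1 (0.90 ± 0.24) were higher in HL60 too. IKZF1 lost its call without HL60 array 2 (0.76, adjusted p = 0.06248) and in the values as deposited (0.80, adjusted p = 0.06614). It also lost the call with the median of probe sets (0.85, adjusted p = 0.06501). IRF8, which directs progenitors to monocytes, was at 12.00, 11.95 and 12.30 in THP-1, above every HL60 array (higher by 2.86 ± 0.43, adjusted p = 9.915e-05). The inhibitor of differentiation ID1 (2.27 ± 0.26) and the interferon regulatory factor IRF5 (1.56 ± 0.19) were higher in THP-1. The monocyte factor KLF4 was at 5.75, 5.00 and 5.62 against 6.21, 6.50 and 6.06 and was not called (-0.80, adjusted p = 0.1148), but was when only these 6 arrays were fitted (adjusted p = 0.03729). The count on the THP-1 side fell from 5 to 3 when HL60 array 2 or 3 or THP-1 array 1 or 2 was left out, and that on the HL60 side fell from 4 to 2 without HL60 array 2.

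Monocyte surface genes did not divide by the lines' names. Of 31 monocyte and macrophage surface genes, 9 were higher in HL60 and 9 in THP-1, where 12.4% and 13.4% of all genes were, and the median difference was 0.14. CD14, the lipopolysaccharide co-receptor that defines classical monocytes, was at 8.14, 7.51 and 8.30 in HL60 and 6.46, 6.12 and 6.65 in THP-1, higher in HL60 by 1.57 ± 0.24 (adjusted p = 9.892e-05). The costimulatory protein CD86 (2.06 ± 0.30), the formyl peptide receptor FPR1 (1.71 ± 0.19) and CD4 (0.77 ± 0.17) were higher in HL60 as well, with no overlap of arrays.

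Among those higher in THP-1, the M-CSF receptor CSF1R was at 7.15, 7.06 and 7.82 in THP-1 and 5.77, 6.02 and 6.56 in HL60 (higher in THP-1 by 1.23 ± 0.21, adjusted p = 0.0003607). The chemokine receptor CCR2 was at 9.95, 9.99 and 9.37 against 7.70, 7.11 and 8.65 (1.95 ± 0.36), and CX3CR1 at 7.67, 7.68 and 7.81 against 4.40, 4.75 and 4.86 (3.05 ± 0.32). The membrane protein MS4A7 (3.66 ± 0.31) and the matrix proteoglycan versican (VCAN, 2.37 ± 0.28) were higher in THP-1 too. The integrin chain ITGAM, a marker of both granulocytes and monocytes, overlapped and was not called (0.41, adjusted p = 0.425). In CSF1R, CCR2 and VCAN, HL60 array 3 was the highest of its line, as it was for IRF8.

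Among Fc receptors, the IgA receptor FCAR (2.09 ± 0.15) and the low-affinity IgE receptor FCER2 (1.14 ± 0.29) were higher in HL60. The neonatal Fc receptor FCGRT (2.17 ± 0.28) and the IgG receptors FCGR2A (1.85 ± 0.25) and FCGR1A (1.37 ± 0.22) were higher in THP-1. In all, 2 of the 11 measured were higher in HL60 and 4 in THP-1, where 12.4% and 13.4% of all genes were.

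The NADPH oxidase, which makes superoxide in phagocytes, differed in its membrane-bound pair in opposite directions. Its catalytic chain CYBB was at 10.16, 10.17 and 10.53 in HL60 and 5.40, 5.34 and 6.52 in THP-1, higher in HL60 by 4.53 ± 0.27 or 23.1-fold (adjusted p = 2.78e-09). Its partner chain CYBA was at 9.25, 9.21 and 9.03 in THP-1 and 8.01, 8.01 and 8.12 in HL60, higher in THP-1 by 1.12 ± 0.15 (adjusted p = 2.818e-05). The GTPase RAC1 was higher in THP-1 by 0.65 ± 0.17, and RAC2 and NCF4 were not called.

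Some genes of the late HOXA and KMT2A-rearranged pattern were far higher in THP-1, and most of the list was not called. Of 30 genes of the HOX clusters and of KMT2A-rearranged leukaemia, 10 were higher in THP-1 and 1 in HL60, where 13.4% and 12.4% of all genes were, 19 were not called, and the median was 0.05 toward THP-1. HOXA9, the homeobox factor most used as a mark of that leukaemia, was at 8.63, 8.62 and 7.65 in THP-1 and 4.89, 4.77 and 4.99 in HL60, higher by 3.42 ± 0.29 (adjusted p = 1.591e-07), and U937 stood at 8.61. The transcription factor MEF2C was at 9.03, 9.15 and 9.27 in THP-1 and 4.35, 4.24 and 4.49 in HL60 (4.79 ± 0.28), and the zinc-finger protein ZNF521 at 8.97 to 9.10 against 3.80 to 4.14 (5.06 ± 0.16). Arrays of the lines did not overlap in these genes.

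Chosen after their values were seen, HOXA11 (3.64) and the HOX partner PBX3 (3.29) were also higher in THP-1, while HOXA10 and HOXA13 differed less (0.98 and 1.20) and HOXA2 to HOXA7 were not called. MEIS1, the usual partner of HOXA9, was at 3.89 to 4.22 in HL60 and 3.70 to 4.24 in THP-1, below 5.12 in both and not called (0.08, adjusted p = 0.7018), whereas U937 stood at 9.67. The RNA-binding proteins of the IGF2BP family went opposite ways. IGF2BP2 was at 8.59, 8.79 and 8.42 in THP-1 and 3.80, 4.08 and 4.09 in HL60 (4.61 ± 0.18), and IGF2BP3 at 7.66, 7.81 and 7.71 in HL60 and 4.23 ± 0.21 in THP-1 (SD, n = 3; difference 3.49 ± 0.17).

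**Figure D2:**
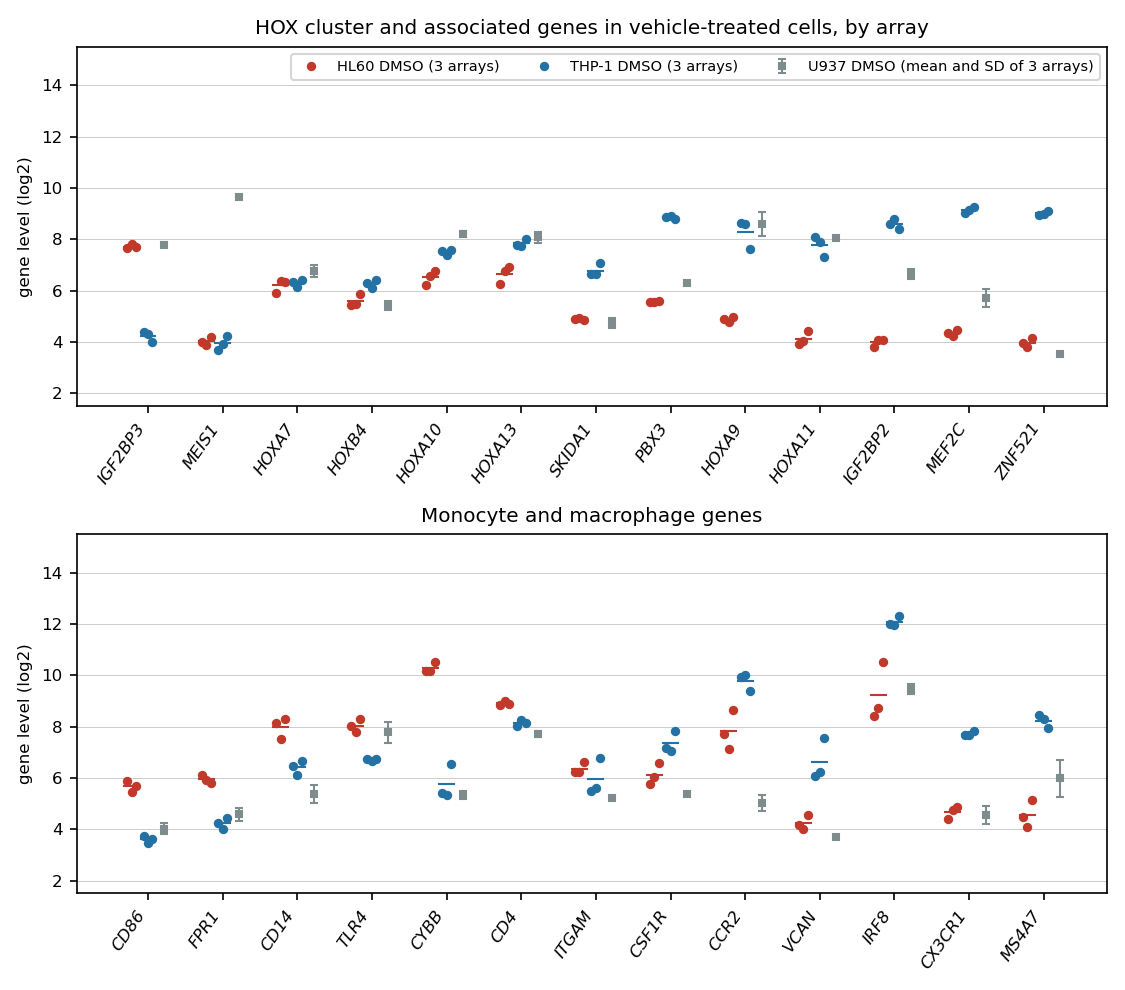
Gene level (log2) of HOX-associated genes (upper panel) and monocyte and macrophage genes (lower panel) on each of the 3 HL60 (red) and 3 THP-1 (blue) DMSO arrays with their means as bars, and U937 DMSO (grey) as mean and SD of 3 arrays. PBX3, HOXA9, HOXA11, IGF2BP2, MEF2C and ZNF521 separate the lines by over 3 log2 units toward THP-1, MEIS1 is near 4 in both, and monocyte genes lie on either side.

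Genes at known lesions of the lines were higher in HL60 in 6 of 9 cases and in THP-1 in 0, where 12.4% and 13.4% of all genes were. MTAP, an enzyme of methionine salvage that neighbours the cell cycle inhibitor CDKN2A on chromosome 9, was at 7.68, 7.35 and 7.26 in HL60 and 3.70, 3.46 and 3.82 in THP-1, a difference of 3.77 ± 0.15 (adjusted p = 4.252e-11), with every THP-1 array below 5.12 and U937 at 7.66. All 18 of its probe sets had the higher mean in HL60, and in 16 the arrays did not overlap, where 16.8% of all 261273 probe sets with 1 symbol had all HL60 arrays above all THP-1 arrays. Along the numbering, the first 2 probe sets differed by 0.39 and 0.63 and the other 16 by 1.74 to 6.70. CDKN2A was at 6.81, 6.84 and 6.84 in HL60 and 5.34, 5.37 and 5.70 in THP-1 (1.36 ± 0.15), and its neighbour CDKN2B differed by 0.77. The kinase-like protein TRIB1, which lies near MYC on chromosome 8, was at 9.27, 9.62 and 9.02 in HL60 and 6.27, 5.65 and 6.44 in THP-1 (3.19 ± 0.23).

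MYC itself, measured by 3 probe sets, was at 8.64, 8.48 and 8.27 in HL60 and 7.92, 7.82 and 6.79 in THP-1 (0.95 ± 0.31, adjusted p = 0.03238), a call lost without HL60 array 1 (0.86), HL60 array 2 (0.95) or THP-1 array 3 (0.59) and in 4 other settings. Probe set 3115525 was low in both lines (1.39 in HL60 and 1.28 in THP-1) and lowers that mean level and difference, while the other probe sets differed by 1.41 and 1.34. The tumour suppressors RB1 (-0.27) and NF1 (0.16) were not called.

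Over the fusion partners of THP-1, the probe sets showed a split in direction in MLLT3 and none in direction in KMT2A. The MLLT3 gene value, at 5.44, 4.98 and 4.60 in HL60 and 4.84, 4.86 and 4.63 in THP-1, was not called (0.23, adjusted p = 0.4254). Its 10 lower-numbered probe sets all had the higher mean in THP-1, by a median of 0.69 (mean level 5.73 against 4.96, arrays apart in 3). Its 5 higher-numbered probe sets all had the higher mean in HL60, by a median of 2.18 (5.09 against 2.85, arrays apart in 4), and there U937 stood at 5.02. All THP-1 arrays lay above all HL60 arrays in 14.4% of all probe sets with 1 symbol, and the reverse held in 16.8%. The split was seen in the data and not tested, and exon numbers and genome positions of the probe sets were not used. KMT2A had the higher mean in HL60 in 55 of 55 probe sets, by a median of 0.87, with arrays apart in 34. The size varied from 0.07 (3351456) to 1.61 (3351415). The lowest-numbered probe sets, 3351388 to 3351391, differed by 0.14, 0.24, 0.79 and 0.19 with overlapping arrays. Whether the size changes along the numbering was not tested. The KMT2A gene value was at 7.95, 8.30 and 8.39 against 7.11, 7.25 and 7.80 (0.83 ± 0.27, adjusted p = 0.03371). The call was lost without HL60 array 2 (0.78), HL60 array 3 (0.74), THP-1 array 1 (0.69) or THP-1 array 2 (0.76), and in the values as deposited (0.75).

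**Figure D3:**
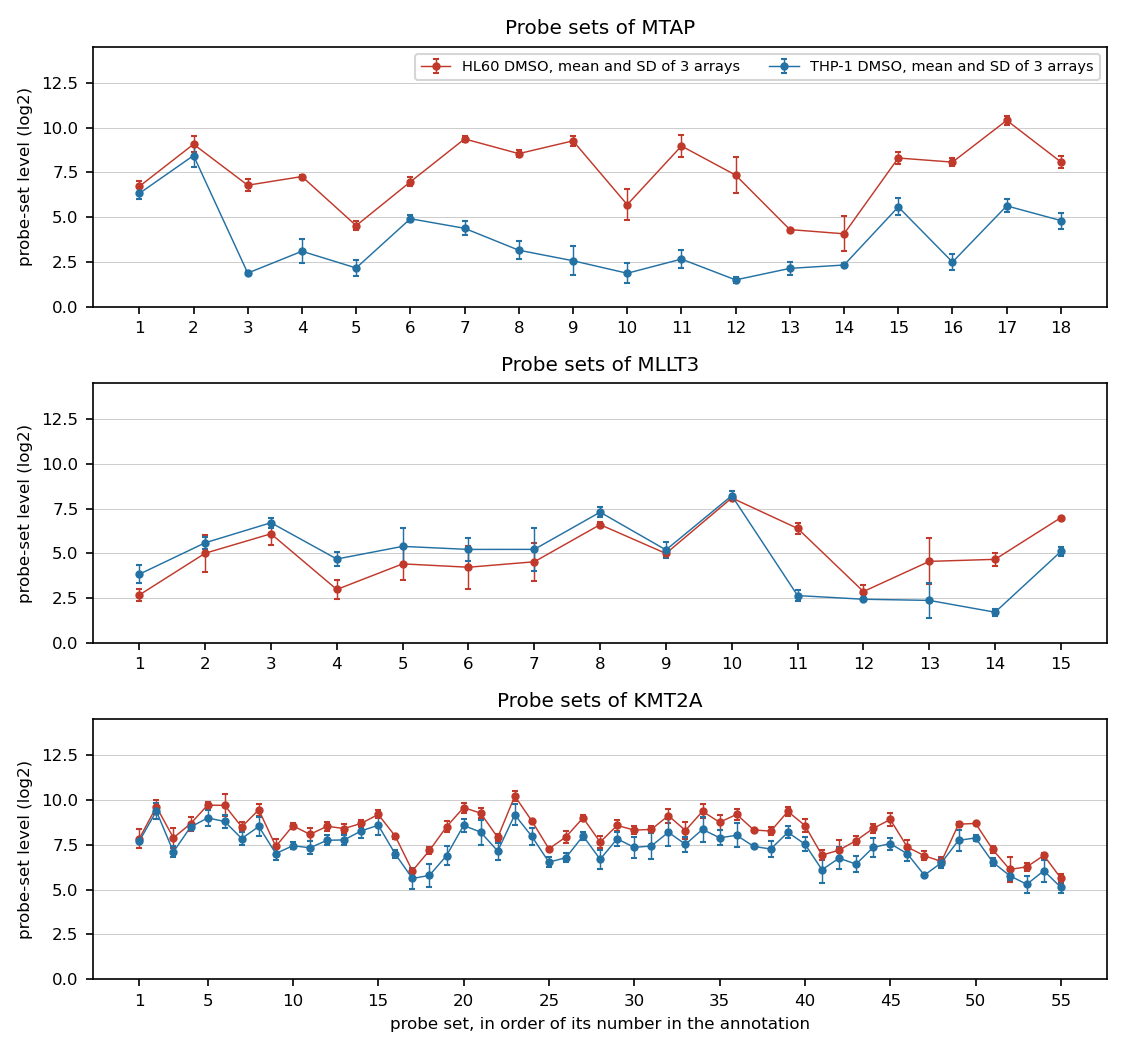
Probe-set level (log2), mean and SD of 3 arrays, for MTAP (18 probe sets), MLLT3 (15) and KMT2A (55) in HL60 (red) and THP-1 (blue) with DMSO, in the order of probe-set number. MTAP parts after its first 2 probe sets, MLLT3 crosses between its 10 lower- and 5 higher-numbered ones, and KMT2A is higher in HL60 throughout.

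Of 26 interferon-stimulated genes, 10 were higher in THP-1 and 1 (the exonuclease ISG20, 0.51) in HL60, where 13.4% and 12.4% of all genes were, and 15 were not called, and the median was 0.64 toward THP-1, against 0.09 toward HL60 over all genes; 9 of the 26 lay at or below 5.12 in both lines. The restriction factor MX2 was at 7.39, 7.45 and 7.20 in THP-1 and 5.52, 5.46 and 5.90 in HL60 (1.72 ± 0.16, adjusted p = 4.123e-07). The membrane protein IFITM3 was at 6.79, 6.87 and 5.65 against 4.62, 3.92 and 3.63 (2.38 ± 0.51, adjusted p = 0.002288). The tether BST2 was higher by 1.64 ± 0.47 (adjusted p = 0.017), a call lost without HL60 array 2 (-1.45), THP-1 array 1 (-1.43) or THP-1 array 2 (-1.48). The call of ISG20 was lost in 8 settings (adjusted p 0.05079 to 0.1574), among them without HL60 array 2 or 3 or THP-1 array 1 or 2. The transcription factors of the interferon response IRF7 (0.17), STAT2 (0.12) and IRF9 (-0.39) were not called.

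Of 13 genes of MHC class I presentation, 6 were higher in THP-1 and 2 in HL60, where 13.4% and 12.4% of all genes were. The immunoproteasome subunits PSMB9 (1.67 ± 0.21) and PSMB8 (1.19 ± 0.20) were higher in THP-1. The trimming aminopeptidases went opposite ways, ERAP1 to THP-1 (0.97 ± 0.22) and ERAP2 to HL60, where it was at 7.04, 7.30 and 6.90 against 4.49, 4.52 and 4.68 (2.52 ± 0.21, adjusted p = 1.453e-07). Beta-2-microglobulin (B2M, 0.07) was not called. Of 14 class II genes, 3 were higher in HL60 and 1 in THP-1: the thiol reductase IFI30 (1.46 ± 0.27), HLA-DMB (0.78) and the class II transactivator CIITA (0.56) in HL60, and HLA-DRA (0.67, overlapping arrays) in THP-1. HLA-DMB and CIITA were not called in the values as deposited (adjusted p = 0.06452 and 0.05523), nor CIITA with the median of probe sets (adjusted p = 0.2079). The THP-1 count of the list fell to 0 without HL60 array 1 or 2 or THP-1 array 1 or 2 and was 2 without THP-1 array 3.

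Of 30 pattern recognition genes, 20 were not called, and 6 were higher in HL60 and 4 in THP-1, where 12.4% and 13.4% of all genes were. In HL60, the Toll-like receptors TLR8 (2.07 ± 0.28), TLR1 (1.64 ± 0.25) and TLR4 (1.32 ± 0.20) differed most. The 4 higher in THP-1 included the DNA-sensing adaptor STING1 (1.75 ± 0.16), pyrin (MEFV, 1.30 ± 0.21) and the inflammasome sensor NLRP3 (1.30 ± 0.19). The HL60 count fell to 3 without HL60 array 3, THP-1 array 1 or THP-1 array 2. Of 26 cytokines and chemokines, 6 were higher in HL60, among them the B-cell factor TNFSF13B (2.17 ± 0.28) and TNF (1.59 ± 0.22). The 2 higher in THP-1 included CXCL1 (0.55 ± 0.17), whose call was lost without HL60 array 1, THP-1 array 1 or THP-1 array 3 (adjusted p 0.06162 to 0.09838), and the list's THP-1 count fell to 0 without THP-1 array 1.

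Complement, receptor and adhesion lists had calls on both sides, beside the 12.4% of all genes called in HL60 and the 13.4% in THP-1. Of 22 complement and coagulation genes, 9 were higher in HL60, led by the anaphylatoxin receptor C3AR1 (2.97 ± 0.45), the immune adherence receptor CR1 (2.87 ± 0.24) and the antitrypsin gene SERPINA1 (1.77 ± 0.13). Another 4 were higher in THP-1, led by thrombomodulin (THBD, 2.32 ± 0.22). Of 28 cytokine and growth factor receptors, 7 were higher in HL60, with the homing receptor CXCR4 at 9.19, 9.18 and 9.16 against 7.76, 7.76 and 7.49, and 6 in THP-1, with the interleukin-3 receptor IL3RA at 7.20, 7.24 and 6.70 against 5.10, 4.87 and 5.40 (1.92 ± 0.29). Of 27 integrin and adhesion genes, 8 were higher in HL60, among them ICAM3 (1.48 ± 0.21), CD47 (1.38 ± 0.27) and the integrin chain ITGA4 (1.03 ± 0.21), and 6 in THP-1, among them the neural adhesion molecule NCAM2 (4.72 ± 0.21), CD99 (1.67 ± 0.19) and PECAM1 (1.53 ± 0.23).

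Of 16 S100 and annexin genes, 3 were higher in each line, beside 12.4% and 13.4% of all genes. The calprotectin chain S100A8 was at 10.41 ± 0.53 (SD, n = 3) in HL60 and 8.69 ± 0.31 in THP-1 (1.72 ± 0.57, adjusted p = 0.03575), and its partner S100A9 was not called (1.22, adjusted p = 0.2082). The S100A8 call was lost without HL60 array 1 or 2 or any THP-1 array (adjusted p 0.06597 to 0.1152). The membrane-binding annexins ANXA4 (1.71 ± 0.24) and ANXA2 (1.71 ± 0.33) were higher in THP-1.

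Lysosomal and metabolic genes differed member by member. Of 28 lysosomal genes, 6 were higher in THP-1 and 3 in HL60, where 13.4% and 12.4% of all genes were. Cathepsin L (CTSL) was at 9.13, 9.36 and 8.36 in THP-1 and 5.12, 4.32 and 5.41 in HL60 (4.002 ± 0.31, adjusted p = 8.183e-08), and the sphingolipid activator PSAP was higher in HL60 (0.93 ± 0.15). Glucose transporters were divided: SLC2A3 (1.70 ± 0.24) was higher in HL60 and SLC2A5 (2.00 ± 0.23) and SLC2A1 (1.82 ± 0.14) in THP-1, and hexokinase HK2 was higher in HL60 (1.59 ± 0.21). Of 24 glycolysis and glucose transport genes, 8 were higher in HL60 (5 without THP-1 array 2) and 4 in THP-1.

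Cell cycle genes were mostly not called, and the counts of this paragraph stand beside 12.4% of all genes called in HL60 and 13.4% in THP-1. Of 32 DNA replication genes, 3 were higher in THP-1 and 0 in HL60, with cyclin E2 (CCNE2) the largest (1.93 ± 0.42), and the count ran from 1 without THP-1 array 1 or 2 to 5 without THP-1 array 3. Of 30 mitosis genes, 5 were higher in THP-1, led by CDC20 (2.03 ± 0.22), KIF20A (1.68 ± 0.27) and cyclin B1 (CCNB1, 1.42 ± 0.23), and 1 in HL60 (the spindle kinesin KIF11, 1.08 ± 0.25); the THP-1 count was 9 without THP-1 array 3. Of 32 splicing regulators, RBFOX2 (2.12 ± 0.20) and ESRP1 (1.56 ± 0.14) were higher in THP-1 and MBNL2 (1.32 ± 0.15) in HL60. Of 20 genes of protein kinase C and diacylglycerol signalling, the targets of PMA, 4 were higher in HL60 and 5 in THP-1, including the kinases PRKCH (1.63 ± 0.19) and PRKCQ (0.97 ± 0.13) and the substrate MARCKS (1.42 ± 0.17) in THP-1; the HL60 count fell to between 1 and 2 without HL60 array 2 or 3 or THP-1 array 1 or 2. Of 17 cholesterol genes, DHCR7 (1.45 ± 0.27) was higher in HL60 and 2 were higher in THP-1, of which 1 was left without HL60 array 2 or 3 or THP-1 array 1 or 2.

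Markers of other cell types are given beside the 12.4% of all genes called in HL60 and the 13.4% in THP-1. Epithelial and fibroblast markers had 0 of 14 called in either direction, with a summed level of 66.9 to 70.9 in HL60 and 63.5 to 68.5 in THP-1. Of 17 T and NK cell markers, CD3G (0.67) and CD3E (0.51) were called in HL60 from levels below 5.12, both not called without HL60 array 2 or 3 or THP-1 array 1 or 2, and the summed level ran from 83.7 to 88.7 in HL60 and 80.7 to 84.5 in THP-1. B cell markers gave 2 and 2 of 10, the surrogate light chain IGLL1 (1.18) and CD22 (0.52) in HL60 and the factors EBF1 (0.82) and PAX5 (0.65) in THP-1 (50.6 to 52.1 against 49.0 to 51.0), and erythroid and megakaryocyte markers 3 and 0 of 12 (63.4 to 66.3 against 58.7 to 62.8; 0 called without THP-1 array 2 and 5 without THP-1 array 3). Dendritic cell markers gave 2 and 2 of 14 (71.7 to 72.4 against 71.3 to 73.7), where the HL60 calls fell to 0 without HL60 array 1 or 2 or THP-1 array 1 or 2. Stem and progenitor genes gave 1 (GATA2, 0.56) and 1 (CD38, 2.82 ± 0.39 in THP-1) of 19, the GATA2 call being lost in 5 settings (adjusted p 0.06014 to 0.159), among them without HL60 array 2 or THP-1 array 2 and in the values as deposited, and CD34 was at 4.64, 4.95 and 5.29 against 4.61, 4.50 and 5.05. Their part in the other results was not tested.

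The largest differences outside the lists were of genes that were low in one line. In HL60, the actin cross-linker filamin A (FLNA) was at 10.64 ± 0.40 (SD, n = 3) against 5.53 ± 0.15 in THP-1 (5.11 ± 0.25, 34.5-fold, adjusted p = 3.36e-10), and U937 was at 10.90. ANKRD22 (4.74), the cannabinoid receptor CNR2 (4.60), the cyclin CCND2 (4.52), the signalling lymphocyte antigen CD48 (4.27), the succinate receptor SUCNR1 (4.03), IGSF10 (3.92), the common cytokine receptor chain IL2RG (3.90), FGL2 (3.84) and GPR141 (3.81) completed the 15 largest in HL60 with MPO, BPI, CYBB, EPX and SERPINB10.

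In THP-1, the adhesion G protein-coupled receptor ADGRL2 was at 10.03, 10.01 and 10.15 against 3.57, 3.68 and 3.95 in HL60, higher by 6.33 ± 0.21 (adjusted p = 4.796e-12), with every HL60 array below 5.12. The lysosomal channel MCOLN2 (5.62), RUBCNL (5.54), DYNLT5 (5.38), the homeobox gene ALX1 (5.27), the cyclophilin PPIC (5.21), EPB41L2 (5.00), the matrix protein TGFBI (4.98), the forkhead factor FOXP2 (4.69), the kynureninase KYNU (4.67) and the meiosis gene MEIOB (4.63) followed, with ZNF521, MEF2C, NCAM2 and IGF2BP2. KYNU (8.30, 8.35 and 6.64) and MEIOB (7.65, 7.66 and 5.61) were lower on THP-1 array 3 than on its fellows. U937 was at 3.70 in ADGRL2, 2.52 in MCOLN2 and 3.59 in RUBCNL, as low as HL60.

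Called genes lay in runs along the chromosomes. Among 16121 genes placed by RefSeq order (GRCh38.p14), 28 runs of 4 or more consecutive genes were called in HL60, the longest of 11. In THP-1 there were 42, the longest of 17. By definition every gene of a run was called in that line, and the number of runs was not tested. Some runs are of neighbouring family members, such as PCDHB2 to PCDHB6. The longest run, from MFSD2A to SCMH1 on chromosome 1, held 17 genes, higher in THP-1 by a median of 2.66 (2.63 with PMA). Its median level was 10.08 in THP-1 against 7.11 in HL60 and 7.61 in U937. In the wider stretch from PPIE to ST3GAL3, 41 of 52 genes were higher in THP-1 and 1 in HL60, where 13.4% and 12.4% of all genes were. The stretch was joined from runs, so called genes form its ends by choice. The median over its 50 genes above the 30th percentile was 1.81 toward THP-1 (1.46 with PMA). This stretch holds the zinc-finger genes ZNF684 (4.17) and ZFP69 (4.06), the exonuclease EXO5 (4.02), and the listed genes CDC20 and SLC2A1 named above. The running median over 25 genes reached -2.16 at CAP1, the actin-binding cyclase-associated protein, where it was -1.87 with PMA.

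Chromosome 10 lay toward HL60: 205 of its 608 genes (33.7%) were higher in HL60 and 49 (8.06%) in THP-1, where 12.4% and 13.4% of all genes were, with a median of 0.33. Its runs included 1 of 11 genes from FGF8 to PITX3 (median 0.81) and 1 of 9 genes from ZSWIM8 to KAT6B (0.92). Chromosome 18 had 31.6% of its 234 genes higher in HL60 and 11.5% in THP-1. Toward THP-1, 21.7% of the genes of chromosome 1, 22.9% of chromosome 5, 22% of chromosome 8 and 20.4% of chromosome 9 were called, against 7.11%, 7.5%, 7.22% and 11.1% toward HL60. On chromosome 5, 8 of 9 genes from SNCAIP to PHAX were higher in THP-1 (median 2.29 over the 8 above the 30th percentile). On chromosome 22, a run held the 5 cytidine deaminase genes from APOBEC3B to APOBEC3G, higher in THP-1 by a median of 1.95. APOBEC3B was at 8.65, 8.64 and 7.75 in THP-1 against 4.73, 4.64 and 5.02 in HL60. These stretches were named after the values were seen. DNA copy number was not measured, and its part in the runs was not tested.

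**Figure D4:**
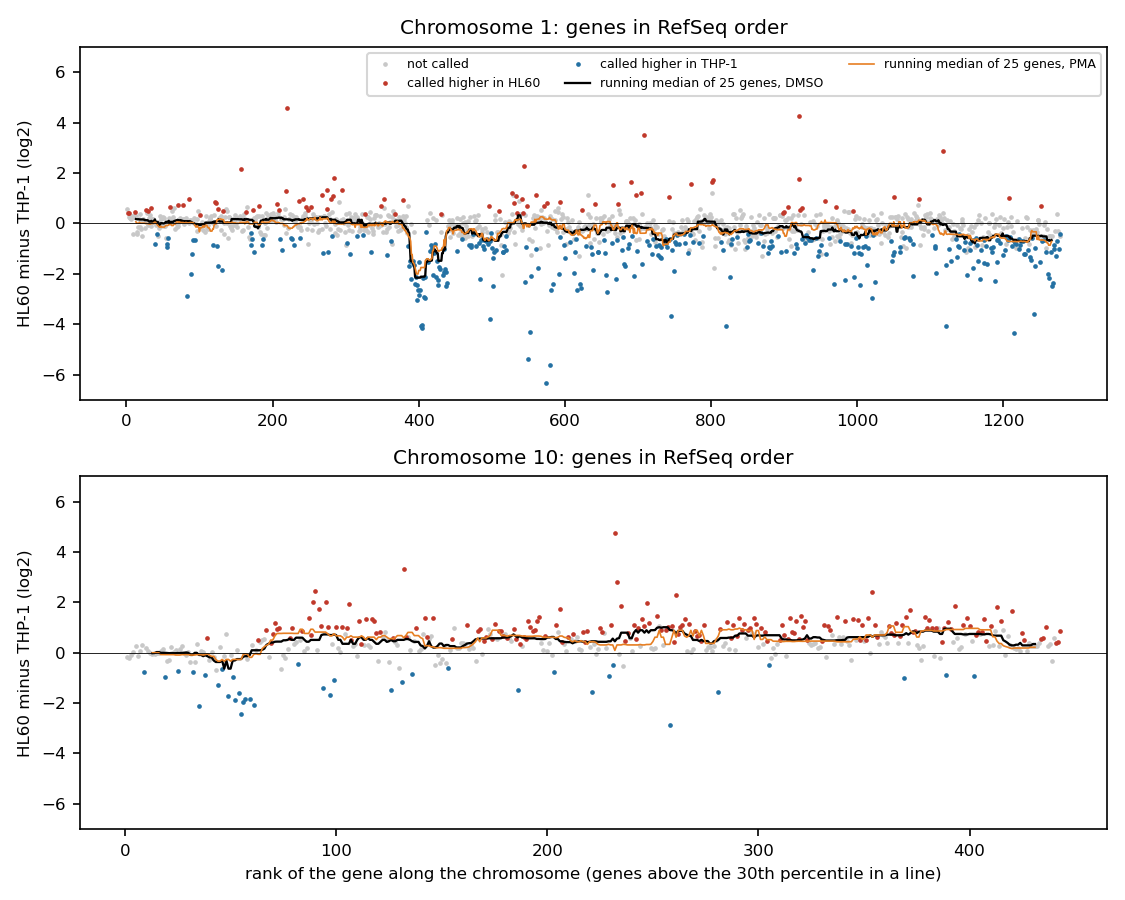
Difference HL60 minus THP-1 (log2) with DMSO for genes of chromosomes 1 and 10 in RefSeq order (genes above the 30th percentile in a line), coloured by call, with running medians of 25 genes for DMSO (black) and PMA (orange). The dip on chromosome 1 reaches -2.16 at CAP1 (-1.87 with PMA), and chromosome 10 lies above 0 over most of its length.

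Exon usage was compared by the splicing index, a probe set's level minus its gene's mean over the probe sets retained, in 173597 probe sets of 11802 genes. At an adjusted p under 0.05 and at least 1 log2 unit, 2116 probe sets were relatively higher in HL60 (1.22%) and 1830 in THP-1 (1.05%), in 1671 genes. Of these genes 530 had calls in both directions. The index is taken from the gene's own mean, so a shift of some probe sets moves the index of the others the opposite way. The calls included 1634 in 1039 genes whose level differed less than 2-fold. Within such genes, single probe sets parted from the rest. In CDK5RAP2, a centrosome protein whose level over the retained probe sets differed by 0.14, probe set 3223494 was at 9.42, 9.19 and 9.44 in HL60 and 5.35, 6.03 and 4.83 in THP-1, an index difference of 3.81 ± 0.27 (adjusted p = 1.039e-06). Chosen after values were seen, index differences in genes within 2-fold were 3.75 in RRBP1, 3.66 in EXOC1 and 3.25 in ANAPC1 toward HL60, and 4.08 in SORCS2 and 3.17 in PRDX3 toward THP-1.

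Other large index differences came from probe sets that did not follow a strong gene difference. In TGFBI, whose level over the retained probe sets was 4.85 higher in THP-1, probe set 2829950 was at 6.45 in HL60 and 6.43 in THP-1. In HOXA9, probe set 3042940 was at 11.84 and 11.65 while the gene differed by 3.62 over the retained probe sets, and in FLNA probe set 4027177 was at 10.48 and 10.35. Such a value says that this probe set did not share the change, and whether it reports the gene's transcript was not tested. In APOBEC3D, probe set 3945592 was at 3.62, 1.82 and 2.31 in HL60 and 9.74, 9.55 and 9.14 in THP-1 (index difference 5.45 ± 0.50 toward THP-1, adjusted p = 1.199e-05). In CYP2S1, a cytochrome P450, probe set 3834034 was at 1.49, 2.95 and 2.40 against 8.67, 8.56 and 8.77 (5.12 ± 0.28). In SERPINB2, the plasminogen activator inhibitor of monocytes, probe set 3791946 was at 10.17 in HL60 and 3.82 in THP-1 (4.89 ± 0.45). Along the SERPINB2 numbering, the 5 lower-numbered called probe sets were relatively higher in HL60 (1.28 to 4.89) and the 5 higher-numbered ones relatively higher in THP-1 (2.15 to 2.47). The gene's mean over its 12 retained probe sets was 1.45 higher in HL60. Because the index is taken from that mean, the 2 sides are not separate findings. The calls numbered 1078 when only genes above the 50th percentile in both lines were kept.

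With PMA the lines remained apart over a partly different set of genes. After 3 days of PMA, 2631 genes were higher in HL60 (16.2%) and 2627 in THP-1 (16.2%). Of the 2016 genes higher in HL60 with DMSO, 1000 were also higher with PMA (49.6% of the DMSO calls and 38% of the PMA calls) and 88 were higher in THP-1. Of the 2182 higher in THP-1, 1362 were also higher with PMA (62.4% and 51.8%) and 103 were higher in HL60. The difference between the lines itself changed with the agent in 2322 genes (14.3%).

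The differences in MPO, EPX and SERPINB10 were smaller with PMA, as was that in ANKRD22, which is in none of the granule lists, while for BPI a change was not called (4.86 with DMSO and 3.55 with PMA, adjusted p of the change 0.3454). For MPO it was 6.76 with DMSO and 1.63 ± 0.17 with PMA (adjusted p of the change 1.655e-09), for EPX 4.09 and 0.11 (0.0001654), for SERPINB10 3.99 and 0.02 (8.802e-08), and for ANKRD22 4.74 and 0.50, the last 3 no longer called with PMA. Other differences persisted: FLNA was higher in HL60 by 4.84 ± 0.25 (adjusted p of the change 0.7688), CCND2 by 5.58 and FGL2 by 5.68 with PMA, and in THP-1 ADGRL2 by 5.43, DYNLT5 by 5.31, TGFBI by 6.18, AZU1 by 2.95 and HOXA9 by 3.27. MYB, not called with DMSO, was higher in THP-1 by 2.71 with PMA (adjusted p of the change 0.0006327). CD14 turned from 1.57 toward HL60 to 3.51 toward THP-1.

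**Figure D5:**
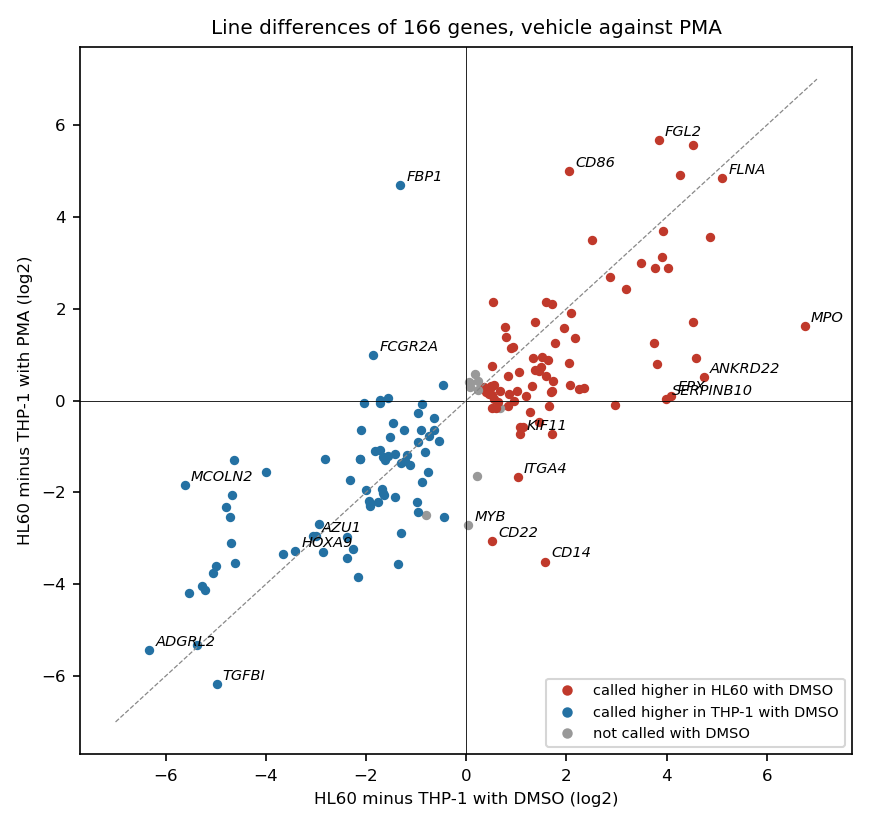
Difference HL60 minus THP-1 (log2) of 166 named genes with DMSO (x axis) and with PMA (y axis), each point 1 gene from means of 3 arrays per group, coloured by its DMSO call, with the dashed line marking equal differences. MPO lies at 6.76 and 1.63, FLNA and ADGRL2 lie near the dashed line, and CD14, ITGA4, KIF11, CD22, FBP1 and FCGR2A lie in the quadrants of opposite sign.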

How the data were processed

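Measured were 18 exon arrays in 6 groups of 3, grouped by the cell line and agent in the labels. The authors deposited log2 probe-set values, per the file headers' value table, for 287329 probe sets (0.583 to 14.4); per the submitters' processing notes the tool was Affymetrix Expression Console, with no version, and the sources used here do not give the summarization, background correction or normalization. Probe sets with exactly 1 symbol in the platform annotation (261273; 9155 had several and 16901 none) were kept, and of 16941 symbols 14546 were current in RefSeq (GRCh38.p14), 2276 were updated and 119 kept as given. All 18 arrays were quantile normalized, log2 values were averaged per gene, and limma 3.58.1 (R 4.3.3) fitted 6 group means (12 residual and 15.7 total degrees of freedom) with two-sided moderated tests and Benjamini-Hochberg adjustment over all 16260 genes or 173597 probe sets. Exon usage used genes with at least 5 retained probe sets above 5.12.

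Named genes were the 15 largest called differences in each direction, up to 3 per direction in each of 31 lists, and a fixed set, all with arrays that do not overlap, save the fixed set; for exon usage, the 8 largest probe sets per direction. Genes named outside this rule were chosen after their values were seen. The members and lists were chosen with earlier results of these data known. Motif letters were searched on both strands in RefSeq promoters. Alternatives were the deposited values, centring, quantile normalization or fitting of the 6 arrays alone, medians of probe sets, a filter on dim genes, leaving out both U937 arrays numbered 2 (which stand apart), each array left out, a replicate block and, for exon usage, diffSplice. The scripts were tested on simulated data. XIST, TSIX and Y-linked genes are not reported, and some listed genes are not reported here.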

Additional observations from a re-analysis of the deposited data

Results flagged for a closer look

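In 6 of the named genes the difference between the lines was called in opposite directions with DMSO and with PMA. They were picked for that and for passing limma's interaction test, so the test is no added support for them. Over all genes, 88 of the 2016 called in HL60 with DMSO were called in THP-1 with PMA. The reverse held for 103 of the 2182 called in THP-1. CD14 went from 7.98 ± 0.42 to 6.81 ± 0.07 (SD, n = 3) in HL60 and from 6.41 ± 0.27 to 10.32 ± 0.25 in THP-1, a change in the difference of -5.08 ± 0.34 (SE, adjusted p = 6.089e-08). CD22, a lectin of B cells, went from 4.84 to 5.10 in HL60 and from 4.31 to 8.17 in THP-1 (-3.59 ± 0.17, adjusted p = 1.655e-09). ITGA4 went from 9.74 to 6.64 and from 8.71 to 8.31 (-2.69 ± 0.29, adjusted p = 1.171e-05), and KIF11 from 7.89 to 3.80 and from 6.82 to 4.53 (-1.81 ± 0.36, adjusted p = 0.002254). The gluconeogenic enzyme FBP1 went from 6.47 to 11.41 in HL60 and from 7.78 to 6.73 in THP-1 (5.996 ± 0.40, adjusted p = 6.658e-08), and FCGR2A from 6.31 to 7.33 and from 8.16 to 6.35 (2.84 ± 0.35, adjusted p = 3.587e-05).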

How the results depend on the processing

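Of the 166 named genes, 126 kept direction and side of the threshold in every planned setting. Over the settings that keep all 6 DMSO arrays of HL60 and THP-1, 1234 of 1299 values of named genes kept both. Another 57 lost the call, 3 gained one, 5 uncalled values turned sign and 0 calls reversed. With 1 of those 6 arrays left out the counts were 892, 94, 1, 9 and 0 of 996. With the values as deposited 2697 genes were called between the lines (4198 in the main setting), 943 of them in HL60 (2016), and 1265 changed their line difference with PMA (2322). Exon usage gave 3946 probe sets, 4205 with diffSplice and 1078 in genes above the 50th percentile in both lines, where fewer genes were tested. Without 1 array each, the calls between the lines ran from 3193 to 4341, in HL60 from 1361 to 2119, in THP-1 from 1816 to 2222, with PMA from 4453 to 5083, for the change with PMA from 1879 to 2295 and for exon usage from 2907 to 3708. Deviations of same-numbered arrays of the lines correlated at 0.56, -0.30 and 0.67. The labels do not say what a number shares, and whether the numbers pair the samples was not settled. With the number as a replicate block 5182 genes were called (2510 and 2672). The cause of these correlations was not tested. Of the 16260 genes, 197 have probe sets with a gap in numbers like that of PRG2 (over 20000), and their values may join distant sites. Array number limits precision, and genes at or below 5.12 are only weakly above the floor.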
